A study of Mus musculus with 3 samples.

Results

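The 42 autosomal genes that encode proteins of the large (60S) subunit of the mouse cytoplasmic ribosome were followed at their poly(A) sites in F121-9 embryonic stem (ES) cells. The genes were taken by name (Rpl3 to Rpl41 and Rplp0, Rplp1 and Rplp2), and sites on the strand of each gene were counted from its start to 1000 bases past its end in GENCODE M21 on the mm10 build. All 42 had a listed site, among 18450 autosomal genes with an exonic or downstream site. Together they held 282 of 178115 listed sites. Sites in their pseudogenes, or assigned to small RNA genes that lie within them, were not counted.

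F121-9 is a hybrid mouse ES line whose parental genomes are CAST and 129, here at passage 14. RNA (500 ng) from 3 replicates of this single group was sequenced from its polyadenylated 3′ ends (PAS-seq, a 3′-end method), so the design has no treated or control group. The labels do not say whether the replicates came from separate cultures, so their spread may be partly technical. Values are given in RPM, the deposited depth-scaled read number. Reads of such a method come from the end of the transcript, so levels were not scaled by transcript length. Whether the ends of all transcripts were recovered equally was not tested. How reads with several alignments were treated is not given, so a difference between genes is a difference in listed reads. Whether it reflects the amount of transcript was not tested. Fewer cells with a transcript and less transcript per cell cannot be told apart in such bulk RNA.

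Ribosomal proteins of the large subunit line the exit tunnel for the new protein, form the stalks that recruit translation factors and tRNAs, and hold the ribosomal RNAs in shape. Cells keep their amounts balanced, in vertebrates largely through translation of mRNAs with a terminal oligopyrimidine start and through breakdown of unassembled protein. The 3′ end of an mRNA is cut a short way after a signal hexamer, most often AATAAA and next ATTAAA, which the CPSF complex reads. Ribosomal protein genes are known for short untranslated regions and for many processed pseudogenes.

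The libraries of replicates 1, 2 and 3 rested on 11085428, 14855484 and 14064461 reads, recovered from the smallest RPM step. Replicate 3 had no reads on X, Y or the mitochondrial genome and autosomal reads made up a larger part of its total, so RPM of autosomal genes tends to be higher there. Of 10 ES cell marker genes, 9 were at 10 RPM or more, with Dppa5a at 0.314 RPM. None of 4 endoderm, 4 mesoderm or 4 neuroectoderm markers reached 10 RPM, against 2 of 4 trophoblast markers (Tfap2c and Krt7) and 1 of 5 feeder fibroblast markers (Thy1).

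The sequences below show the 30 bases that end at the cleavage site, with the signal hexamer in capitals, for main sites that carry different hexamers. All were read from the GRCm38 (mm10) reference on the strand of the gene. Rpl32 and Rpl8 stand for the 31 members with AATAAA.

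Rpl32, chr6:115805512-115805541, minus strand: tttatgtttaAATAAAatcacaaaacctgc
Rpl8, chr15:76906290-76906319, plus strand: ctAATAAAgtacgtcctttggctaatccgg

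Rpl27a, Rpl6 and Rpl38 are well-read members whose main site follows ATTAAA instead.

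Rpl27a, chr7:109521743-109521772, plus strand: ggttaATTAAAtgctaacattttccatgtg
Rpl6, chr5:121208938-121208967, plus strand: gttaacctaATTAAAcagcttcataggttc
Rpl38, chr11:114672302-114672331, plus strand: gcgtgtgactATTAAAaaccctgaaaagtg

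Rpl23a, Rpl7a, Rpl27 and Rplp2 had neither of these hexamers listed at the main site, and the capitals mark the deposited hexamer nearest to the usual place.

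Rpl23a, chr11:78180921-78180950, minus strand: cttttttcacCATAAAtaatgctgcttgtc
Rpl7a, chr2:26913288-26913317, plus strand: gtacctaAATATAattacaaaattatcttg
Rpl27, chr11:101445452-101445481, plus strand: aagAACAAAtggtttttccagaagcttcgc
Rplp2, chr7:141451229-141451258, plus strand: cagcagaggagAAGAAAgatgagaagaagg

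The members summed to 49980, 50335 and 55708 RPM in replicates 1, 2 and 3, which was 5.94%, 5.98% and 6.01% of the autosomal reads. The share therefore moved little between libraries, at 5.98% ± 0.034 (SD, n = 3), although the RPM sum was highest in replicate 3. The 31 small subunit genes took 4.42% ± 0.094 of the same reads, and 25 genes for assembly factors of the large subunit took 0.293% ± 0.0082. Of the members, 30 (71.4%) reached 100 RPM and 18 reached 1000 RPM, against 1597 and 75 of all 20807 autosomal protein-coding genes (7.68% at 100 RPM). A further 5 members lay between 20 and 100 RPM and 7 below 20 RPM, and the means ran over a 4149-fold range. The lower end is uncertain, because Rpl24 rests on 12, 3 and 38 reads at 1 internal exon site. The range was 1345-fold without Rpl24 (Rpl32 over Rpl36) and 8458-fold without replicate 3.

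**Figure D1:**
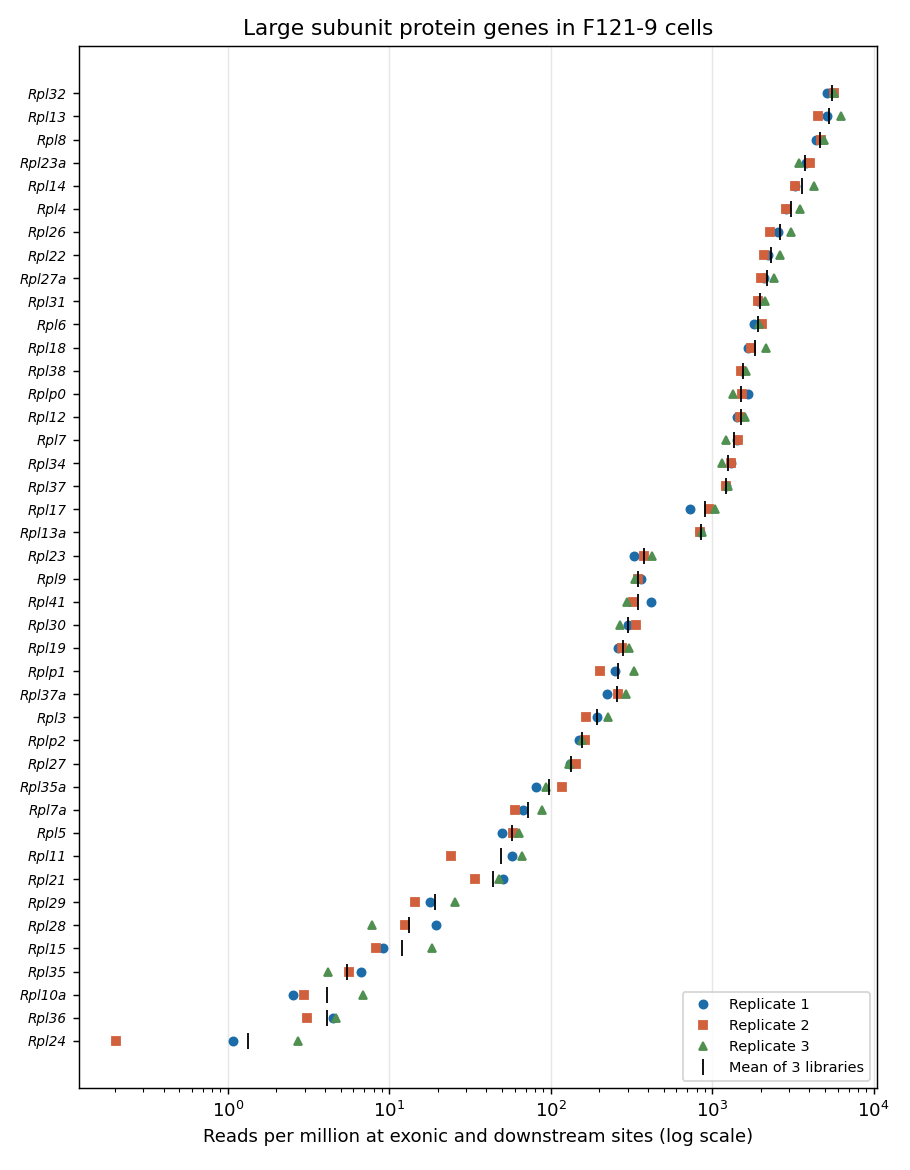
Level of each of the 42 large subunit protein genes in RPM (log scale), from the highest at the top to the lowest, with a symbol for each of the 3 libraries and a bar for their mean. Rpl32 at 5513 RPM and Rpl24 at 1.33 RPM are the ends of the range, and the symbols of a gene lie close together except among the lowest genes and Rpl11.

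Proteins of the tunnel and its exit included some of the highest and some of the lowest members. Rpl23a, where nascent-chain factors such as the signal recognition particle dock, had 3786, 4048 and 3461 RPM in replicates 1, 2 and 3. Rpl4, whose loop lines the tunnel, had 2848, 2886 and 3504 RPM, and Rpl26, also near the exit, had 2571, 2268 and 3091 RPM. Rpl4 and Rpl26 were highest in replicate 3. Rpl31 (1987 ± 122 RPM; SD, n = 3) and Rpl22 (2310 ± 270 RPM) lay just below them, while Rpl17 (907 ± 159 RPM) and Rpl19 (281 ± 22.0 RPM) were lower. Rpl35, a neighbour of Rpl23a at the exit, was at only 6.68, 5.65 and 4.20 RPM, and no library of Rpl35 came near any library of the other exit proteins.

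Among proteins placed near the peptidyl transferase centre, Rpl8 had 4377, 4693 and 4918 RPM and Rpl3 had 194, 164 and 225 RPM, with no overlap between the genes. The stalk that recruits elongation factors is built on Rplp0 and Rpl12, with Rplp1 and Rplp2 bound to Rplp0. Rplp0 (1516 ± 168 RPM) and Rpl12 (1503 ± 86.0 RPM) overlapped in range. Rplp1 had 250, 203 and 328 RPM and Rplp2 had 150, 162 and 157 RPM, so both were below every library of Rplp0. Rpl10a, of the stalk on the other side that guides the outgoing tRNA, was at 2.53, 2.96 and 6.83 RPM.

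Rpl5 and Rpl11 enter the ribosome together with the 5S RNA and, when free, bind Mdm2, the ligase that keeps p53 low. Rpl5 had 49.98, 58.6 and 63.7 RPM and Rpl11 had 57.2, 24.0 and 66.1 RPM. The genes overlapped, and Rpl11 was lowest in replicate 2, where its 24.0 RPM rested on 356 reads. With reads listed as intronic included, Rpl11 was at 136, 91.1 and 181 RPM, above every library of Rpl5, which was then at 53.9, 58.8 and 63.8 RPM.

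Of the members with other places in the subunit, the highest were Rpl32 (5157, 5706 and 5675 RPM) and Rpl13 (5119, 4537 and 6253 RPM). Rpl14 had 3242, 3239 and 4260 RPM, and Rpl27a had 2101, 1995 and 2423 RPM. The 10 highest members, Rpl32, Rpl13, Rpl8, Rpl23a, Rpl14, Rpl4, Rpl26, Rpl22, Rpl27a and Rpl31, made up 67.3% of the members' sum. Rpl38, whose loss in the Tail short mouse alters translation of Hox mRNAs and the axial skeleton, was at 1555 ± 59.1 RPM, and Rpl41, the smallest of the proteins, was at 346 ± 64.1 RPM.

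At the low end, Rpl24 had 12, 3 and 38 reads, or 1.08, 0.202 and 2.70 RPM. Rpl24 sits at a bridge to the small subunit and is altered in the Belly spot and tail mouse. Rpl36 had 4.51, 3.10 and 4.69 RPM and Rpl15 had 9.11, 8.28 and 18.3 RPM. Rpl28 (13.2 ± 5.83 RPM) and Rpl29 (19.2 ± 5.69 RPM) complete the 7 members below 20 RPM with Rpl35 and Rpl10a, and these 7 together held 0.114% of the members' sum.

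The members without AATAAA at the main site covered much of the range. Rpl6 had 1826, 2021 and 1960 RPM, and Rpl38 had 1524, 1519 and 1623 RPM. Rpl23, which like Rpl5 and Rpl11 can bind Mdm2, had 326, 378 and 423 RPM and Rpl37a had 223, 260 and 294 RPM. Rpl23 and Rpl37a were highest in replicate 3. Rpl27 had 131, 142 and 130 RPM and Rpl7a had 67.7, 59.8 and 88.2 RPM. Of the genes with the most exact copies of their 3′ end elsewhere in the genome, Rpl7 had 1424, 1437 and 1212 RPM and Rpl30 had 301, 339 and 269 RPM, both lowest in replicate 3. The remaining members, Rpl18, Rpl34, Rpl37, Rpl9, Rpl35a and Rpl21, had means from 44.2 to 1851 RPM, with Rpl35a, a gene altered in human Diamond-Blackfan anaemia as are Rpl5 and Rpl11, at 97.1 ± 18.6 RPM.

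In the order of levels, 31 of 41 neighbouring genes overlapped in their range over the 3 libraries. The steps without overlap included Rpl8 over Rpl23a (1.24-fold), Rpl37 over Rpl17 (1.35-fold), Rpl13a over Rpl23 (2.26-fold), Rpl21 over Rpl29 (2.30-fold), Rpl15 over Rpl35 (2.16-fold) and Rpl36 over Rpl24 (3.09-fold). The coefficient of variation over libraries had a median of 12.5% in the members, with the lowest in Rpl13a (1.59%) and Rpl37 (1.82%). It was largest in Rpl24 (95.4%), Rpl10a (57.7%), Rpl15 (46.9%), Rpl11 (45.2%) and Rpl28 (44.1%), of which all but Rpl11 were below 20 RPM. At 100 RPM or more the median was 9.78% in 30 members and 10.9% in 1597 protein-coding genes. Replicate 3 was the highest library for 27 members, and for 19 when each library was scaled to its autosomal reads. No such count over all genes is given here, so it cannot be read as particular to the members.

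Most members ended at a single place. The main site, the most used exonic or downstream site of a gene, held a median of 98.5% of a member's reads, against 89.5% in the 9425 autosomal protein-coding genes with a mean of at least 50 reads. At 100 RPM or more the medians were 99.5% and 95.6%. The share was at least 90% in 33 members and at least 99% in 20, and 38 members had the same main site in all 3 libraries. Terminal exons held 99.7% ± 0.058 of the members' reads, other exons 0.0812%, introns 0.192% and downstream bases 0.0386%. Sites with reads in all 3 libraries made up 36.9% of the members' sites (104 of 282), against 18.6% of all autosomal sites, and those 104 held 99.9% of the members' RPM. The shares of sites were not matched for level, so they cannot be read as particular to the members. The median level was 362 RPM in the members and 2.07 RPM in all 20807 autosomal protein-coding genes.

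**Figure D2:**
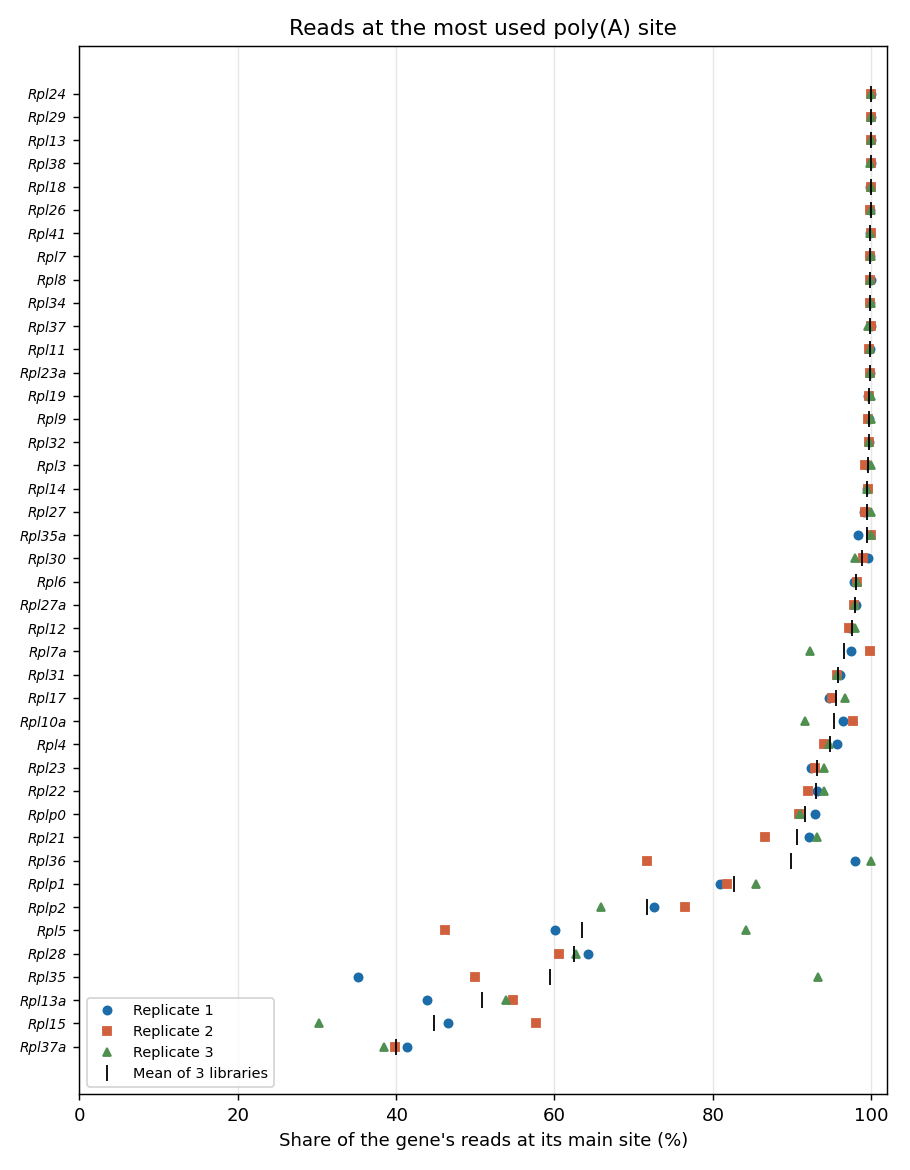
Share of each member's exonic and downstream reads that fell at its main site, in percent, with a symbol per library and a bar for the mean of 3. Of the 42 genes, 33 lie at 90% or more, and Rpl37a, Rpl15, Rpl13a, Rpl35, Rpl28 and Rpl5 form the tail below 65%.

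Among exonic and downstream sites, few members spread over several. Rpl11 is counted here with 99.8% at its main site, but the share was 34.9% when its site 50 bases past the end of the coding transcript, listed as intronic, was included. Rpl37a put 41.4%, 39.9% and 38.5% of its reads at its main site in replicates 1, 2 and 3. It had 3 terminal exon sites within 187 bases, with 96.3, 103 and 59.3 mean RPM from the proximal to the distal one. Rpl13a put 43.9%, 54.8% and 53.9% at its main site, and the next site held most of the rest. Rpl15 (44.8% ± 13.8), Rpl35 (59.5% ± 30.2), Rpl28 (62.5% ± 1.83) and Rpl5 (63.5% ± 19.2) followed, and Rpl15 and Rpl35 changed their main site between libraries, as did Rpl37a and Rpl13a.

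The main site lay close to the stop codon. The distance along the transcript had a median of 51.5 bases in the members, with quartiles of 40 and 66.75, against a median of 646 with quartiles of 264 and 1465 in 9421 protein-coding genes. It was from 0 to under 110 bases in 34 members (81.0%), against 7.93% of those genes, and at 100 RPM or more the medians were 52 and 403 bases. The 29 small subunit genes with at least 50 reads had a median of 55 bases, and the assembly factors had 239. Rpl5 (1008 bases), Rpl13a (389), Rpl31 (256) and Rpl41 (229) had the longest distances. All distances were measured on the coding transcript whose end was nearest to the site, with ties going to the longest coding sequence. For Rpl41 the ends of transcripts with 141 and 78 coding bases were equally near, and the longer was used. For Rpl31 a transcript with 390 coding bases was used, while others with 378 ended close by. The values of Rpl41 and Rpl31 therefore depend on the transcript taken.

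**Figure D3:**
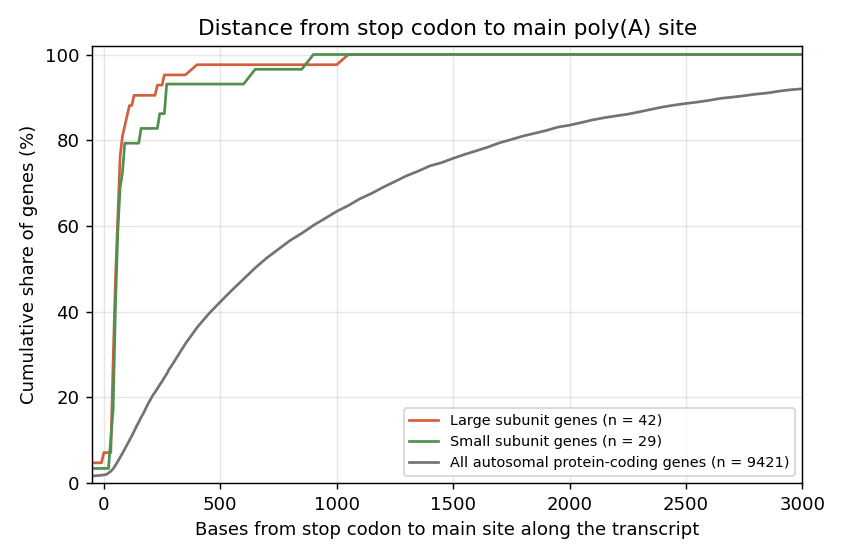
Cumulative share of genes, in percent, by the number of bases from the stop codon to the main site, for 42 large subunit genes, 29 small subunit genes and 9421 autosomal protein-coding genes with at least 50 reads. By 100 bases the large subunit curve has reached 85.7%, against 8.98% for all genes.

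In 3 members the main site came before the last base of the stop codon. The site of Rplp2 lay 50 bases and that of Rpl27 lay 6 bases upstream of it, with the sequences shown above. For Rpl27 this holds for the site's own base only, because its 26-base cluster (chr11:101445468-101445493) reaches past the stop codon. Rpl24 had no site within 24 bases of its annotated end, and its only exonic site, 309 transcript bases before the stop codon, was followed by 12 A in 20 bases of genome. Rpl27 also had no site within 24 bases of its annotated end, and its main site held 99.4% ± 0.482 of 134 RPM. In the members as a whole, 27 main sites (64.3%) were within 24 bases of an annotated transcript end. The share was 70.8% in 9421 protein-coding genes and 79.3% in 29 small subunit genes.

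AATAAA was listed at the main site of 31 members (73.8%), against 67.2% of the 9425 protein-coding genes. ATTAAA without AATAAA was listed in 6, Rpl26, Rpl27a, Rpl6, Rpl38, Rpl23 and Rpl37a, and another hexamer in 5, Rpl23a, Rplp2, Rpl27, Rpl7a and Rpl24. No member lacked a listed hexamer, against 3.44% of the protein-coding genes. The deposited search reached 60 bases upstream and used 18 hexamers, and counted back from the site's own base the hexamer began at base 53 in Rpl28 and at base 43 in Rpl26. In the sequences printed with a hexamer it began at base 19 to 30. A less common hexamer went with a high level in Rpl23a, since its main site, where CATAAA began at base 20, held 99.8% of 3765 RPM.

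By reads, sites with AATAAA held 74.2% ± 0.634 of the members' total and sites with ATTAAA held 17.4% ± 0.370 (SD, n = 3). In the small subunit genes the values were 93.8% ± 1.02 and 0.0284% ± 0.00422, and 27 of 31 main sites had AATAAA and 0 had ATTAAA. No test was made of this difference between gene lists, and 4 of the 6 ATTAAA members (Rpl26, Rpl27a, Rpl6 and Rpl38) had over 1000 RPM. Over all protein-coding genes with at least 50 reads, ATTAAA sites held 15.0% ± 0.128.

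Pairs of sites in terminal exons could be tested in 10 of the 41 members with at least 50 reads. For each gene with at least 50 reads, the RPM at the most distal site was set over that at the most proximal site, with a pseudocount of 0.05 RPM on the log2 scale and sites of at least 5% of the gene's reads. A pair was called at an adjusted p under 0.05 and at least 2-fold (limma over 4752 genes, two-sided, Benjamini-Hochberg). Of the 10 members, 2 were called distal and 3 proximal, against backgrounds of 29.2% and 11.4% of all pairs tested, and the median log2 ratio was -1.03 in the members and 1.42 in all pairs. With so few members these shares are a description. The median distance between the sites was 427 bases in the members and 1210.5 in all pairs.

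The pairs of Rplp0, Rpl22, Rplp1 and Rpl13a, which were well read at both sites, are shown by the 30 bases that end at each site.

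Rplp0 distal, chr5:115563606-115563635, plus strand: aaaATTAAAgctcctagtgtttttgtgggc
Rplp0 proximal, chr5:115563482-115563511, plus strand: gaaagatggaAATAAAggcttacttctctt
Rpl22 distal, chr4:152334038-152334067, plus strand: cactttttgtATTAAAgtggctgacacatg
Rpl22 proximal, chr4:152332461-152332490, plus strand: AATAAAatttaggaacaaaaccggtggttt
Rplp1 distal, chr9:61913284-61913313, minus strand: ttaagttggctAATAAAgagctgaacctgt
Rplp1 proximal, chr9:61913358-61913387, minus strand: ggaggcaaagaaggaagagtccgaggagtc
Rpl13a distal, chr7:45125557-45125586, minus strand: gtgctAATAAAttatttgacttaagtgtgt
Rpl13a proximal, chr7:45125923-45125952, minus strand: ggtgtgaacccAATAAAgactgtttgcctc

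Rplp0 and Rpl22 used their proximal AATAAA site over a distal ATTAAA site. Rplp0 had 101, 130 and 108 RPM at the distal site and 1557, 1392 and 1221 RPM at the proximal site, 124 bases apart, so that the distal share was 6.10%, 8.55% and 8.12%. Rpl22, needed in mice for the development of alpha-beta T cells, had 148, 165 and 155 RPM at the distal site and 2066, 1930 and 2457 RPM at the proximal site, 1577 bases apart. In both genes the proximal values stood far above the distal ones in every library. The log2 ratio was -3.62 ± 0.36 (SE, n = 3) in Rplp0 and -3.78 ± 0.35 in Rpl22, each with a limma adjusted p of 0.0234.

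Rpl28 also favoured its proximal site, with 3.97, 0.808 and 0.356 RPM at the distal site and 12.4, 7.54 and 4.91 RPM at the proximal site. The log2 ratio was -2.80 ± 0.56 (limma adjusted p = 0.0348), but the distal site rested on 44, 12 and 5 reads. For Rpl28 the call was lost with its most used sites as the pair.

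Rplp1 and Rpl5 used the distal site more. Rplp1 had 203, 166 and 280 RPM at the distal AATAAA site and 47.7, 36.8 and 47.9 RPM at the proximal site, which lies 74 bases upstream and 34 bases before the stop codon. Its log2 ratio was 2.27 ± 0.35 (limma adjusted p = 0.0257), and the distal share was between 80.9% and 85.4%. Rpl5 had 30.04, 27.1 and 53.6 RPM at the distal site and 4.24, 6.53 and 3.34 RPM at the proximal site, which lies 87 bases before the stop codon and had no hexamer. Its log2 ratio was 2.95 ± 0.54 (limma adjusted p = 0.0311). A middle Rpl5 site with AATAAA, 13.7 mean RPM, was more used than the proximal one, and against that site the Rpl5 ratio was 1.67 and was not called.

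The other 5 pairs did not pass. Rplp2, which resembles Rplp1 in having a proximal site before the stop codon, had 40.4, 37.8 and 52.3 RPM at the distal site and 109, 124 and 103 RPM at the proximal one, with no overlap. Its log2 ratio was -1.37 ± 0.37 (limma adjusted p = 0.0567), and it was called with edgeR on recovered reads (adjusted p = 0.00196) and with a pseudocount of 0.5 RPM (adjusted p = 0.0276). Rplp1 and Rplp2, the paired proteins of the stalk, thus had a distal share of 82.7% ± 2.35 and 28.0% ± 5.16 (SD, n = 3), a difference that was not tested.

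Rpl13a, a protein that in human myeloid cells also leaves the ribosome to silence inflammatory mRNAs, had 369, 461 and 466 RPM at the distal site and 406, 334 and 326 RPM at the proximal one. The distal site was lower in replicate 1 and higher in replicates 2 and 3, and the log2 ratio was 0.28 ± 0.37 (limma adjusted p = 0.552). At a site minimum of 1% another, more proximal site made the pair of Rpl13a, and the ratio was then 4.85 and called distal (limma adjusted p = 0.0156). Rpl37a had a ratio of -0.69 ± 0.35 (limma adjusted p = 0.170), which turned to 0.11 when its 2 most used sites made the pair. Rpl15 had -1.73 ± 0.69 (limma adjusted p = 0.114) on 7 to 35 distal reads. Rpl35 had 2.17 ± 1.62 (limma adjusted p = 0.314), with 0 proximal reads in replicate 3, and its sites lay 3262 bases apart in terminal exons of different transcripts. The Rpl35 ratio was 0.10 without replicate 3 and 1.09 with a pseudocount of 0.5 RPM.

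None of the 5 calls held when any 1 of the 3 libraries was left out, when no gene of all 4752 was called (limma, 1743 to 2255 genes at an unadjusted p under 0.05), although each of the 10 members kept its direction. They were also lost with no filter on low genes, where no gene was called and 2835 had an unadjusted p under 0.05. With edgeR on the same pairs 2 members were called distal and 4 proximal.

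**Figure D4:**
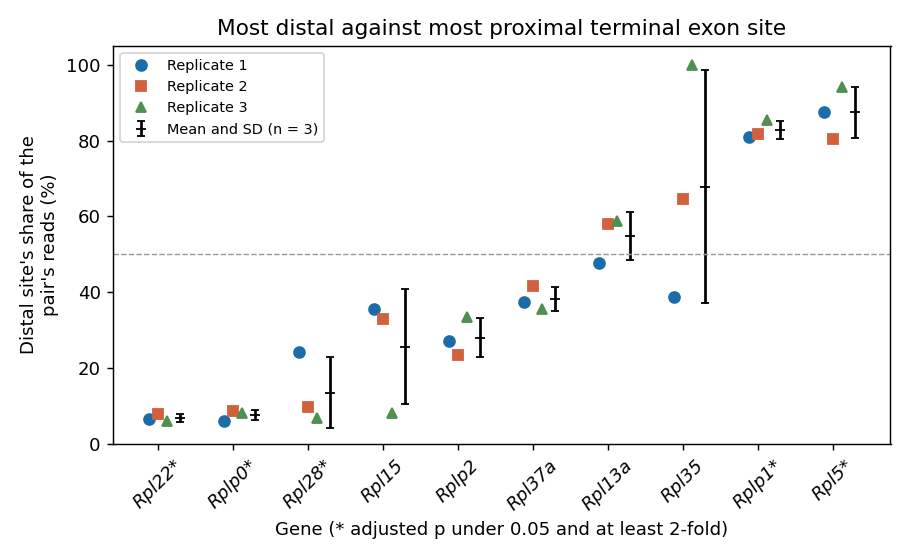
Distal site's share of the reads of a pair of terminal exon sites, in percent, for the 10 members tested, with a symbol per library and the mean with its SD (n = 3). Rpl22 and Rplp0 lie below 9% in every library, Rplp1 and Rpl5 lie above 80%, and Rpl35, Rpl15 and Rpl28 have the widest spread.

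Reads outside terminal exons were concentrated in a few members. Rpl11 had 64.0% of its reads listed as intronic, nearly all at chr4:136049681, with 76.2, 64.2 and 108 RPM there and 57.1, 23.9 and 66.0 RPM at its main site 267 bases upstream. The site was above the main site in each library and had no hexamer. It lies 50 bases past the end of the full-length coding transcript, and a single annotated noncoding transcript of Rpl11 makes it an intron. Rpl24 followed with 24.3% of its reads in an intron, from 1 site with reads in replicate 3 alone, and Rpl5 with 2.35%. The Rpl5 value came from replicate 1, at 7.20%, 0.343% and 0.111% in replicates 1, 2 and 3.

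Within 18 members lie 42 annotated small RNA genes, mostly small nucleolar RNAs that guide modification of ribosomal RNA and are released from the spliced intron. Of these 42, 25 in 17 hosts had a listed site within 10 bases of the annotated end of the small RNA. Of those sites, 9 were counted under the host. The others were assigned to the small RNA gene itself and are not in the host's values. No hexamer was listed at 22 of the 25 and AATAAA at 1. The levels were low, with a median of 0.825 RPM, and 8 of the 25 sites had reads in all 3 libraries. The highest were at the end of Gm26205 in Rpl6, with 13.3, 8.28 and 11.5 RPM, and of Snora21 in Rpl23, with 3.52, 8.41 and 13.2 RPM.

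Sequence copies of the 3′ ends were counted because reads of a gene and of its pseudogenes can be alike. The 50 bases that end at the main site had 98 other copies with up to 2 mismatches in the genome, from 24 members, and 23 of the copies were exact. Rpl30 had 10 exact copies, Rplp0 5 and Rpl7 3, while Rpl24, Rpl41, Rpl9, Rpl12 and Rpl31 had 1 each. Of the 98 copies, 59 lay in annotated pseudogenes and 32 in no annotated gene. Sites were listed at 52 copies, and all copies together held 166 RPM, against 52007 RPM in the members themselves.

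The copies with most reads were a pseudogene copy of Rpl6 on chromosome 19 (48.0, 71.8 and 54.1 RPM, 2 mismatches) and one of Rplp1 on chromosome 4 (29.0, 25.6 and 26.8 RPM, 1 mismatch). In the case of Rpl36 the pseudogene was above the gene, since Rpl36-ps12 had 8.39, 5.99 and 7.61 RPM and Rpl36 itself 4.51, 3.10 and 4.69 RPM. Rpl36-ps12 overlaps a protein-coding gene on the same strand, and from which transcript its reads came was not tested. Of 156 autosomal pseudogenes named after a member, 55 had reads, 0 reached 10 RPM, and they summed to 39.2 RPM. Pseudogenes on X and those with other names, such as the copies of Rpl6 and Rplp1 above, are outside this count. The 24 members with a copy had a median of 1132 RPM and the 18 without a copy had 270 RPM. Of the 7 members below 20 RPM, 4 had a copy, as did 24 of all 42 members. Copies were sought only for the bases that end at the main site, which was itself chosen by listed reads. For Rpl24 that was an internal exon site, so copies of its annotated end were not counted. How reads with several alignments were treated is not given in the sources used here, and its part in the low levels was not tested.

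**Figure D5:**
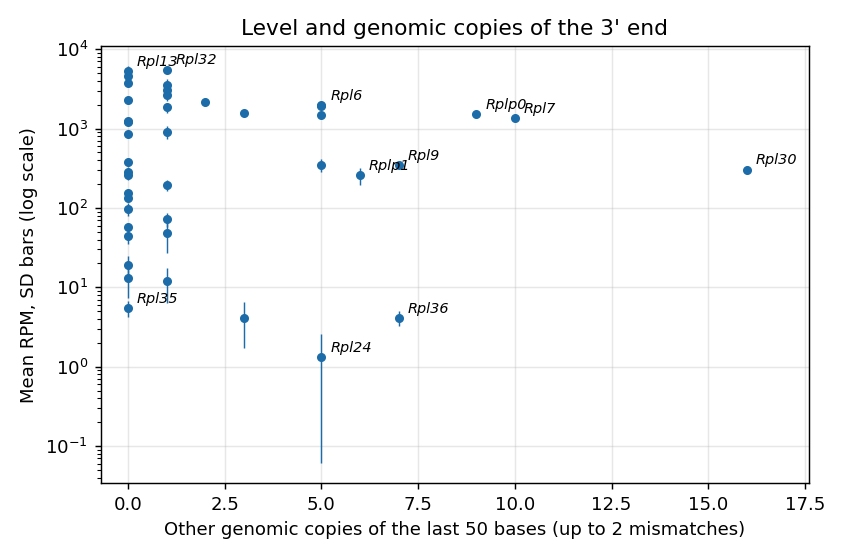
Mean level of each member in RPM (log scale, bars are SD over 3 libraries) against the number of other genomic copies of the 50 bases ending at its main site, with up to 2 mismatches. Members without a copy run from 5.51 to 5303 RPM, and Rpl30 with 16 copies lies at 303 RPM.

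No listed site in any gene was followed by more than 6 A in the next 10 bases of genome, and 0 of 178025 were followed directly by 6 A. Of the 76 annotated 3′ ends of coding transcripts of the members, 0 had more than 6 A in those 10 bases. The 15 ends of the 7 members below 20 RPM had between 0 and 5.

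X-linked large subunit genes and paralogues had levels in the same range. On X, where only replicates 1 and 2 have reads, Rpl36a had 3177 and 2715 RPM, Rpl39 had 1494 and 1775 RPM, and Rpl10, which joins the subunit last, had 13.6 and 24.0 RPM. Of the paralogues, Rpl10l had 118, 123 and 99.3 RPM, above Rpl10 in both libraries with X reads, while Rpl22l1 (16.3 ± 5.06 RPM) and Rpl3l (3.67 ± 0.757 RPM) were far below Rpl22 and Rpl3. Rpl36al (917 ± 84.3 RPM) and Rpl7l1 (213 ± 1.73 RPM) were the highest of the 6 paralogues found in the annotation, and Rpl39l had 11.1 ± 3.04 RPM. Of the 25 assembly factor genes, 24 reached 10 RPM and none reached 1000 RPM.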

How the data were processed

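Poly(A) sites of 3 F121-9 libraries were analysed, 1 deposited site list per library on the same 178115 sites. Per the text deposited with the lists, the build is mm10 and the annotation GENCODE M21, and values are RPM computed by the authors, with a class and hexamers for each site. A fraction per site, also deposited by the authors, was not used for any result. No source used here names the aligner or the site caller. Whole reads were recovered from RPM (100% of values within 0.01 read), and edgeR on these reads was an alternative only.

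Sites were assigned to genes by overlap of the whole cluster, terminal exons first, then other exons, introns and up to 1000 bases downstream; 80 tied sites were left out. Sequence came from GRCm38, where 189100 of 189100 deposited hexamers were found at their place. Python 3.11.15 with pandas 2.3.3 and R 4.3.3 with limma 3.58.1 and edgeR 4.0.16 were used. The ratio test was checked on simulated reads for 4752 genes, where 78 of 100 4-fold and 99 of 100 16-fold changes were called, and 2 of 4552 unchanged genes. The simulation gave every gene the same median spread and unchanged genes an even split. In the real pairs the spread differed between genes, so these rates need not hold for them. Levels, shares, distances and copies have no test. Members described in full are the 10 highest and 5 lowest, those with a tested pair, without AATAAA, with the 5 lowest main site shares, 5 largest coefficients of variation, 3 largest intronic shares and 3 most exact copies. The members and the gene lists were chosen with earlier results of these data known. Precision rests on 10147672 to 13513327 listed reads per library.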

Additional observations from a re-analysis of the deposited data

How the results depend on the processing

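Directions of the 10 members' site ratios held under the alternatives tried, except Rpl37a, which was 0.11 with the 2 most used sites. Members called distal and proximal numbered 1 and 1 at a site minimum of 10% (where Rpl22 and Rplp0 had no pair), 5 and 9 at 1% (19 members tested), 1 and 3 with the 2 most used sites, 1 and 3 with sites at least 100 bases apart, and 0 and 0 with no filter on low genes. Without any 1 replicate (range 0 to 0), no member and no gene was called. Over all genes, distal calls numbered 2101 with a pseudocount of 0.5 RPM, 592 at a site minimum of 10%, 3438 at 1% and 0 with no filter. Proximal calls numbered 283 at 10% and 0 with no filter. The smallest limma adjusted p was 0.0685 to 0.115 without 1 replicate and 0.0503 with no filter, and the cause was not tested. The members' sum was 59770 RPM when scaled to autosomal reads, and 31 then reached 100 RPM. The median main site share was 97.7% with intronic sites in the denominator. Exact copies numbered 0 for the last 100 bases. Of 294 single levels, 27 moved by more than their SD, 24 of them on that scaling, and 3 of 252 main site shares moved. Members with AATAAA numbered 30 or 31 throughout. With a single group no samples pair across groups, and each site ratio was taken within a library, which edgeR used as a block. Depth limits the 7 members below 20 RPM most, and members with 1 library of few reads, such as Rpl24.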
